A study of Mus musculus with 8 samples.

Results

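The Igf2 and Kcnq1 imprinted domains lie side by side on distal chromosome 7 of the mouse, and their replication timing was followed through 9 listed genes (Igf2, Ins2, Th, Ascl2, Kcnq1, Cdkn1c, Slc22a18, Phlda2 and Nap1l4) and through the profile of the 2.5 Mb around them. The rule takes the genes by name and position and uses no timing value, although they were chosen for description with earlier results of these data known. They make up 9 of the 21074 protein-coding genes with a value. The interval holds 400 of the 316864 windows of the profiles and 56 protein-coding genes, and the last window of the chromosome starts at 145338000. All coordinates are mm10. Gene positions came from RefSeq's table of GRCm38.p6, which has the same coordinates.

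The cells were E14Tg2a, a male mouse embryonic stem cell line on an isogenic 129/Ola background, and both groups carry an auxin-inducible degron through which CTCF can be removed. The auxin group was treated for 2 days with 500 µM of indole-3-acetic acid, the compound that triggers the degron, and the control group received none. New DNA was labelled with BrdU for 2 hours, and early and late S-phase cells were then separated by flow cytometry. The 8 libraries give 2 auxin profiles and 2 control profiles, since an early and a late library form 1 profile. A higher score means earlier replication: in the authors' deposited table of early-to-late regions, all 63 regions score lower with auxin. The scale of the score and the depth of each profile are unknown, and the score has an SD of 2.1 over the genome. Whether replicates are separate cultures is not stated, and the p-values therefore reflect the spread among these profiles alone, which may be technical. No degron-free cells with auxin were analysed here, so an effect of auxin cannot be told apart from one of CTCF loss, and the CTCF protein level was not measured in these files.

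In an imprinted domain, some genes are expressed from 1 parental chromosome according to methylation laid down in the germ line. CTCF binds the unmethylated maternal copy of the control region upstream of H19 and insulates Igf2 from enhancers beyond it, so that Igf2 is expressed from the paternal copy and H19 from the maternal copy. In the neighbouring domain, the paternal long noncoding RNA Kcnq1ot1, which starts inside Kcnq1, silences genes on both sides of it, among them Cdkn1c, Phlda2 and Ascl2, on the same chromosome. The profiles do not separate the parental copies, so each score is a mean over both.

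CpG letters, where methylation is laid down, differ widely in number among the promoters of these genes. RefSeq promoters (GRCm38.p6, 250 bases before to 50 bases after the start) were found for 5 of the 9 genes, 8 promoters in all, with 2 to 26 CpGs each and a median of 14.5, against a median of 7 over all 32851 promoters. The 4 promoters of Igf2 hold 2, 14, 24 and 7 CpGs. The 2 promoters below belong to the latest and the earliest replicating of the 5 genes in control cells, Igf2 (most upstream start, chr7:142666767-142667066, minus strand) and Phlda2 (chr7:143502475-143502774, minus strand), and are written 5′ to 3′ with every CpG in capitals.
Igf2: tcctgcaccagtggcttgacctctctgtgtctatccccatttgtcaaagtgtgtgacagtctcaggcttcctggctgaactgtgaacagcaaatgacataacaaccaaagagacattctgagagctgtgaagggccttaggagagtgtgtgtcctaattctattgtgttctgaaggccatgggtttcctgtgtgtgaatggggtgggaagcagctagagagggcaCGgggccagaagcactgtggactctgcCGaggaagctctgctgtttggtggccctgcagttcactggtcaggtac
Phlda2: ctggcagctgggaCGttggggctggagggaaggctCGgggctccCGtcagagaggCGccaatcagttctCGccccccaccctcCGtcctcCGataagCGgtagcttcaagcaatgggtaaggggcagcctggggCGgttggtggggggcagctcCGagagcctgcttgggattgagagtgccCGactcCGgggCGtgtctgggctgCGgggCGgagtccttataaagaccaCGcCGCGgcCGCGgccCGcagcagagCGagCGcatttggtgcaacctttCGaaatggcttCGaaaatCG
The Igf2 promoter holds 2 CpGs, and 14.1% of all promoters hold fewer, while the Phlda2 promoter holds 26, and 83.1% hold fewer. Slc22a18, which replicated nearly as early as Phlda2, has 2 CpGs in its promoter. The control region upstream of H19 is not among these promoter stretches.

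In every profile the interval had the shape of a valley between early flanks. The lowest 50 kb bin of the interval lay at -0.05 in auxin replicate 1 (chr7:142650001-142700000) and 0.17 in auxin replicate 2 (chr7:142750001-142800000), against -0.44 in control replicate 1 (chr7:142700001-142750000) and -0.35 in control replicate 2 (chr7:142550001-142600000). The lowest bin of control replicate 2 holds H19, and the other 3 lie between that bin and Th. On the side toward the centromere the highest bin, at or next to the edge of the interval, reached 3.95 and 3.39 in the auxin profiles and 3.15 and 3.62 in the control profiles. On the side toward the chromosome end it reached 3.25 and 3.11 with auxin, against 3.02 and 2.91 without.

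**Figure D1:**
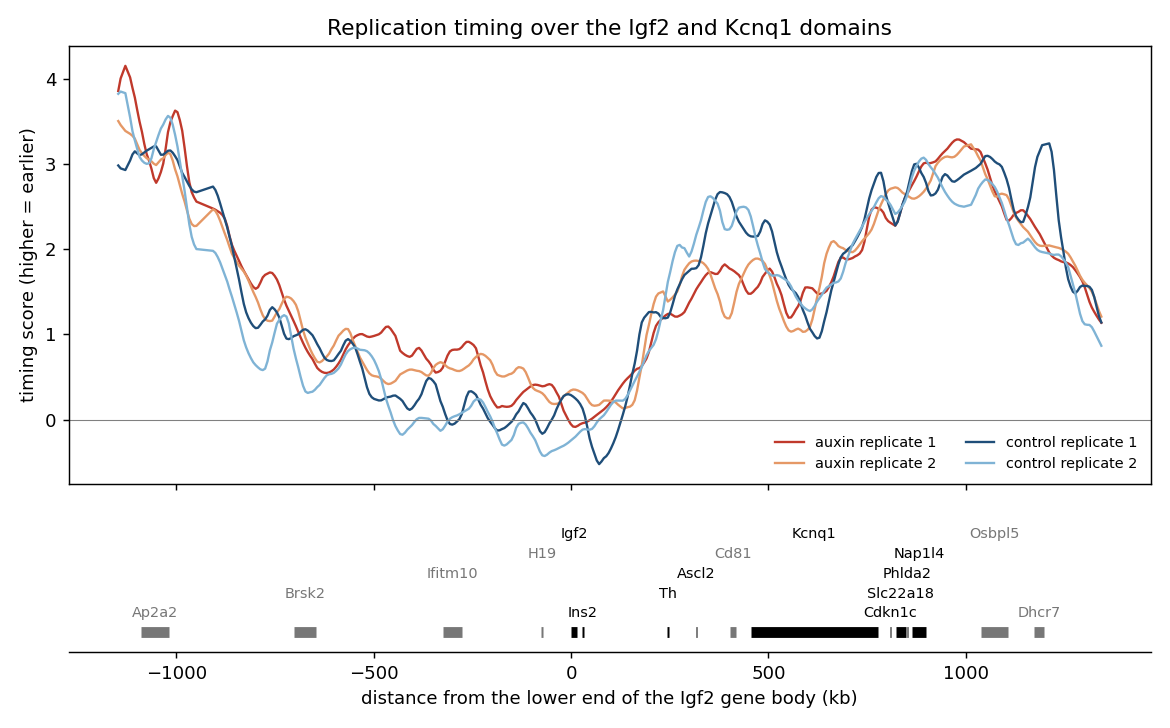
Timing score of each 6 kb window in the 4 profiles (y axis, higher is earlier) against the distance from the lower end of the Igf2 gene body in kb (x axis), with gene bodies drawn below (black for the 9 listed genes, grey for neighbours). Igf2 sits in the valley near 0, and all 4 profiles score between 2.62 and 2.95 over Nap1l4. The red and orange auxin lines lie above the blue control lines over H19 and below them around Cd81, and they cross the control lines farther to the left.

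Of the growth factor genes, Igf2, which encodes the fetal growth factor insulin-like growth factor 2, scored near 0, between the early flanks (chr7:142650768-142666816, 3 windows). It scored -0.07 and 0.35 in the auxin profiles, against 0.27 and -0.23 in the control profiles. The groups overlapped, and 28.2% of all genes had a control score as low or lower. The difference was 0.12, with a 95% interval from limma of -0.51 to 0.74. Leaving out auxin replicate 2 gave -0.095 and leaving out control replicate 2 gave -0.13, so the direction rested on single profiles.

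Ins2, 1 of the 2 mouse insulin genes, lies beside Igf2 and overlaps 1 window (chr7:142678656-142679726). It scored -0.05 and 0.33 with auxin, against 0.18 and -0.14 in control, also with overlap. Its difference of 0.12 turned to -0.074 without auxin replicate 2 and to -0.044 without control replicate 2. Th, the gene of tyrosine hydroxylase, the rate-limiting enzyme of dopamine synthesis, lies on the slope out of the valley (chr7:142892779-142899995, 2 windows). It scored 1.23 and 1.42 with auxin and 1.19 and 1.53 in control, a difference of -0.04 (95% interval -0.57 to 0.49). That sign turned when auxin replicate 1 (0.052) or control replicate 2 (0.13) was left out.

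Ascl2, which encodes a basic helix-loop-helix factor needed in the trophoblast, scored 1.50 and 1.86 in auxin profiles, against 1.77 and 2.12 in control profiles (chr7:142966822-142969264, 2 windows). The groups overlapped, with a difference of -0.26 (95% interval -0.83 to 0.30) that kept its sign without any single profile, from -0.44 to -0.08. Kcnq1, the gene of a voltage-gated potassium channel subunit, spans 320174 bases and 54 windows (chr7:143106877-143427050). It scored 1.69 and 1.68 with auxin and 1.83 and 1.78 in control. Both auxin profiles lay below both control profiles, by 0.12 on average (95% interval of the difference -0.59 to 0.35). The single bin at its midpoint gave 0.25, the opposite direction.

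Cdkn1c, which encodes the cyclin-dependent kinase inhibitor p57Kip2, scored 2.32 and 2.70 with auxin, against 2.50 and 2.54 in control (chr7:143458339-143461059, 2 windows). The control values lay between the auxin values, and the difference was -0.01, or -0.20 without auxin replicate 2 and 0.18 without auxin replicate 1. Slc22a18, a gene of the organic cation transporter family, scored 2.43 and 2.69 with auxin and 2.43 and 2.47 in control (chr7:143473726-143499334, 5 windows). Its difference of 0.11 was -0.02 without auxin replicate 2. Phlda2, which encodes a pleckstrin homology domain protein that restrains placental growth, scored 2.62 and 2.64 with auxin and 2.63 and 2.59 in control (chr7:143501545-143503145, 2 windows). Its difference was 0.02, with a 95% interval of -0.45 to 0.49, and the bin at its midpoint gave -0.17. Nap1l4, a nucleosome assembly protein gene at the edge of the domain (chr7:143513579-143549882, 7 windows), was the earliest by group mean, with 2.86 and 2.62 with auxin and 2.91 and 2.95 in control. In auxin replicate 2 it scored below Cdkn1c, Slc22a18 and Phlda2. Both auxin profiles lay below both control profiles, with a difference of -0.19 (95% interval -0.68 to 0.30) that was -0.075 without auxin replicate 2.

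**Figure D2:**
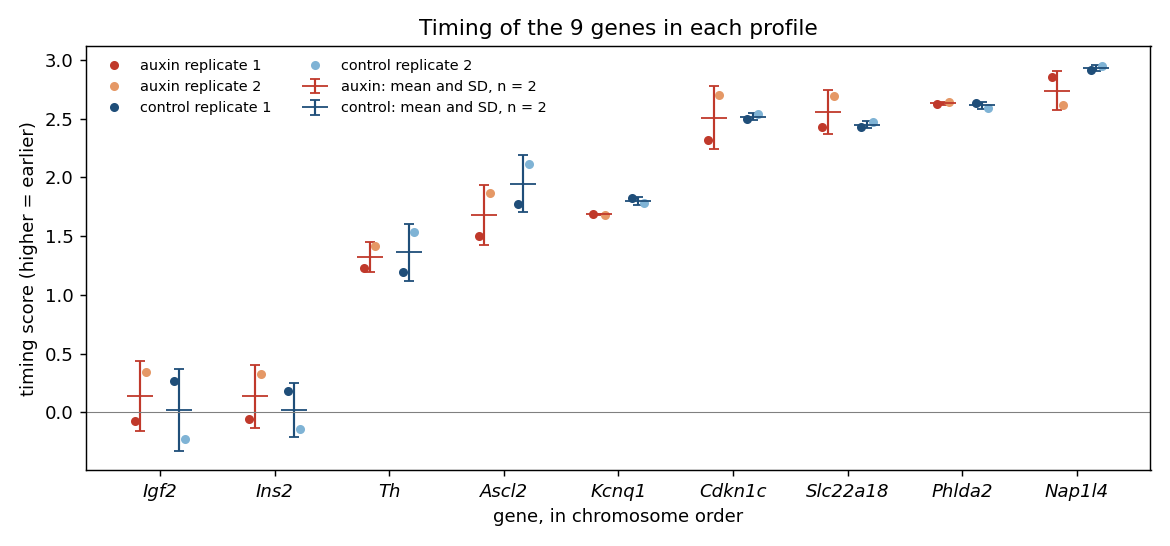
Timing score (y axis, higher is earlier) of the 9 genes in chromosome order (x axis); points are single profiles, and bars are the mean and SD of 2 profiles, with auxin left of control for each gene. The scores climb from near 0 at Igf2 to between 2.62 and 2.95 at Nap1l4, and auxin lies wholly below control only at Kcnq1 and Nap1l4.

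Of the 9 genes, 0 passed in limma's moderated test with Benjamini-Hochberg adjustment over all genes, and their adjusted p-values ran from 0.604 to 0.99 (0.0% of all genes passed). At an unadjusted p under 0.05 there were also 0 of 9, against 17.1% of all genes. When limma's prior variance followed the mean score and was fitted robustly (a trended, robust variance), 0 of 9 were called, against 5.31% of all genes. The groups did not overlap for 2 of 9 (Kcnq1 and Nap1l4, auxin lower in both), a smaller share than the 49.8% of all genes. The median difference of the 9 was -0.01 and their range -0.26 to 0.12, while the median over all genes was 0.00. The replicates differed by a median of 0.263 between the auxin profiles and 0.0479 between the control profiles over these 9 genes, and the groups by a median of 0.115.

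In control cells the order from late to early was Ins2, Igf2, Th, Kcnq1, Ascl2, Slc22a18, Cdkn1c, Phlda2 and Nap1l4. Igf2 and Ins2 overlapped each other, as did Kcnq1 and Ascl2, while the other neighbours in this order did not overlap between the 2 control profiles. With auxin, Kcnq1 and Ascl2 again overlapped, and Slc22a18, Cdkn1c, Phlda2 and Nap1l4 all overlapped. Neighbouring genes share smoothed stretches of the same profiles and are not independent of each other.

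By the mean scores of 2 spans, the step between the domains was smaller in both auxin profiles than in both control profiles. Over the span from Igf2 to Th (chr7:142650768-142899995, 41 windows) the mean score was 0.42 and 0.53 in the auxin profiles and 0.37 and 0.35 in the control profiles. Over the span from Ascl2 to Nap1l4 (chr7:142966822-143549882, 97 windows) it was 1.86 and 1.85 with auxin, against 2.12 and 2.11 in control, a difference of -0.26. The Kcnq1 side exceeded the Igf2 side by 1.44 and 1.31 with auxin and by 1.75 and 1.76 in control, so both auxin profiles had a smaller step, by 0.38 on average. This contrast of the sides was formed after the values were seen. For each of these 3 differences the exact permutation test gave a two-sided p of 0.333, the smallest that 2 profiles against 2 allow. The difference was not even along the Kcnq1 side: it was -0.74 from Ascl2 to Trpm5 but -0.056 from Cdkn1c to Nap1l4. The span of the Igf2 side leaves out H19.

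The difference on the Igf2 side, 0.12, was 0.17 without auxin replicate 1 and 0.061 without auxin replicate 2. Centred on the median of chromosome 7, the Igf2 side differed by 0.036 and the whole interval by 0.027. The Kcnq1 side, centred in the same way, differed by -0.34. Over the whole interval the mean score was 1.55 and 1.51 with auxin and 1.49 and 1.36 in control. The interval's difference of 0.11 was 0.17 without control replicate 1 and 0.04 without control replicate 2, so it was within the spread of the control profiles.

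The largest differences on the Kcnq1 side lay between listed genes, over Tspan32, Cd81, Tssc4 and Trpm5. Tspan32 and Cd81 encode tetraspanins, and Trpm5 encodes a cation channel of taste cells. Tspan32 (chr7:143004907-143019486, 3 windows) scored 1.72 and 1.62 in auxin profiles, against 2.49 and 2.60 in control profiles. Cd81 (chr7:143052750-143067930, 3 windows) scored 1.76 and 1.27 with auxin and 2.54 and 2.29 in control. Auxin was below control in both genes without overlap, by 0.87 (SE 0.20) and 0.90 (SE 0.25). Neither passed in limma over all genes (adjusted p of 0.172 and 0.181), while both did with a trended, robust variance in limma (adjusted p of 0.0285 and 0.037).

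The bin that holds Tspan32 (chr7:143000001-143050000, 8 windows) had the largest difference of the interval. It scored 1.75 and 1.42 with auxin, against 2.59 and 2.44 in control. The difference was -0.93 (SE 0.22), with a limma adjusted p of 0.059 over all bins, and 1.74% of all bins had a difference as low or lower. The next bin (chr7:143050001-143100000) differed by -0.80, with an adjusted p of 0.0709 in limma. Both bins were called when the replicate number was added as a block (limma adjusted p of 0.0282 and 0.0486), although nothing in the labels pairs the numbers. With a trended, robust variance limma called both too (adjusted p of 0.0061 and 0.0135).

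**Figure D3:**
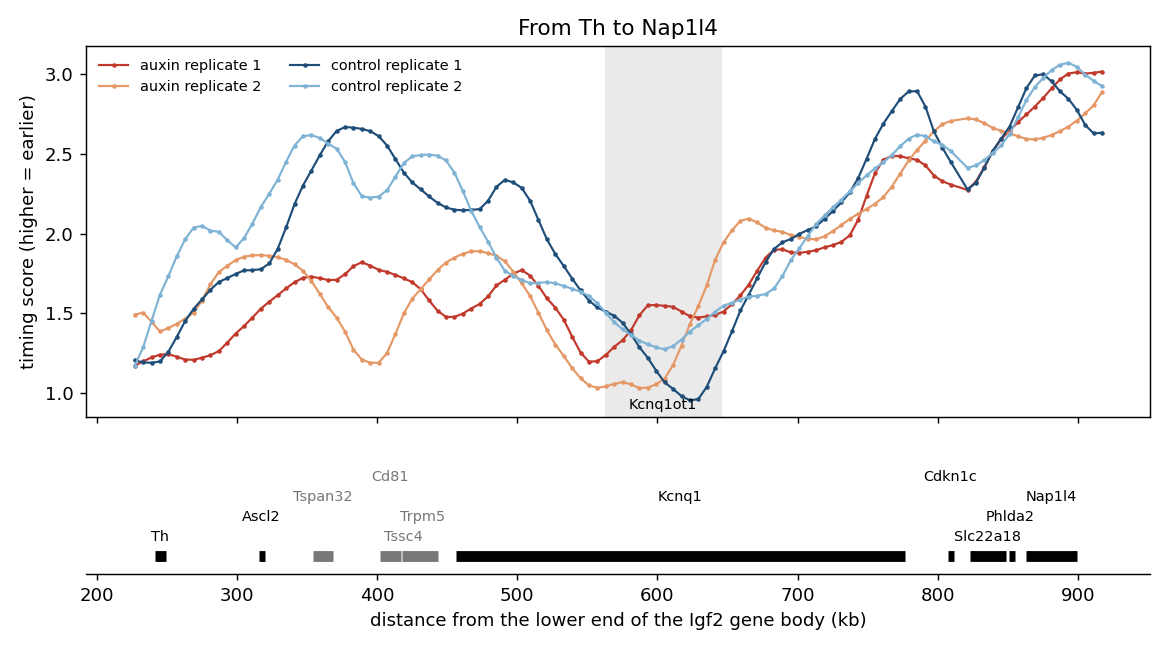
Timing score of each window in the 4 profiles (y axis, higher is earlier) from Th to Nap1l4 (x axis, distance from the lower end of the Igf2 gene body in kb), with the Kcnq1ot1 transcript shaded and gene bodies below. Both control profiles have an early peak over Tspan32 (bin scores 2.59 and 2.44), where the auxin profiles are lower (1.75 and 1.42), and the 4 profiles lie closer together over Kcnq1ot1 and beyond it.

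In the control profiles this stretch formed a local early peak of its own. Of the bins wholly between Th and the end of Kcnq1, chr7:143000001-143050000 was highest in both control profiles (2.59 and 2.44). With auxin the highest of them lay within Kcnq1, at chr7:143350001-143400000 in replicate 1 (1.94) and at chr7:143300001-143350000 in replicate 2 (2.04). The bin across the end of Kcnq1 (chr7:143400001-143450000) was higher than these in every profile. It scored 2.42 and 2.38 with auxin and 2.73 and 2.52 in control. The Tspan32 bin stood above the lowest bin within Kcnq1 by 0.42 and 0.38 in the auxin profiles, against 1.53 and 1.05 in the control profiles. The Tspan32 bin was picked for its large difference, so its smaller height with auxin follows partly from that choice. The lowest bin was chr7:143200001-143250000 in both auxin profiles and chr7:143250001-143300000 in both control profiles. From Ascl2 to the end of Trpm5 the mean difference was -0.74, with 1.68 and 1.58 with auxin and 2.33 and 2.40 in control.

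Within Kcnq1 the difference was not even along the gene. In the part at lower coordinates than Kcnq1ot1 (chr7:143106877-143213110, 18 windows) the score was 1.53 and 1.55 with auxin, against 2.02 and 1.82 in control. Over Kcnq1ot1 itself (chr7:143213111-143296547, 15 windows), where the gene dips, it was 1.44 and 1.23 with auxin and 1.21 and 1.39 in control, so the groups overlapped. In the part at higher coordinates (chr7:143296548-143427050, 23 windows) the score was 1.94 and 2.07 with auxin and 2.03 and 1.98 in control, with a difference of -0.00. Of the 54 windows of Kcnq1, 27 had both auxin profiles below both controls, against 25.7% of all windows. In 7 both lay above, against 26.3% of all windows, and 20 overlapped. The differences of the 54 ran from -0.60 to 0.33, and neighbouring windows are not independent of each other. By bins, the groups separated in both directions in the rest of the gene: over chr7:143250001-143350000 auxin lay above control by 0.23, and over chr7:143350001-143450000, which runs past its end, auxin lay below (a difference of -0.19).

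Within the valley, at lower coordinates than Igf2 and over H19, the auxin profiles were the higher ones. H19, the maternally expressed noncoding RNA (chr7:142575530-142578146, 2 windows), scored 0.39 and 0.32 with auxin, against -0.15 and -0.40 in control, a difference of 0.63. The 2 windows over it had limma adjusted p-values of 0.161 and 0.149 over all windows. Its bin (chr7:142550001-142600000) differed by 0.56, which passed in limma with a trended, robust variance (adjusted p of 0.0429) but not in the main fit (0.165). From Mrpl23 to H19 the mean was 0.38 and 0.42 with auxin and 0.03 and -0.21 in control. By bin means the auxin profiles stayed above both controls up to 142650000, just before Igf2, although the single windows already overlapped at 142626000. Over Igf2 itself the groups overlapped. Past Ins2, in the bin chr7:142700001-142750000, both auxin profiles were again above both controls, with a difference of 0.35.

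H19 stood at the Igf2 end of a run of 10 bins, 500 kb (chr7:142150001-142650000), in which both auxin profiles were above both control profiles. Over that run the mean was 0.58 and 0.52 with auxin, against 0.13 and -0.05 in control, a difference of 0.51. The run holds the keratin-associated gene cluster Krtap5, the lysosomal protease gene Ctsd, the troponin genes Tnni2 and Tnnt3 and the lymphocyte gene Lsp1. Its largest gene difference was at Ifitm10, of the interferon-induced transmembrane family (chr7:142325835-142373779, 9 windows), with 0.74 and 0.61 with auxin and 0.03 and -0.02 in control. Ifitm10 differed by 0.67 (SE 0.20) and Gm40460 by 0.65 (SE 0.22), with limma adjusted p-values of 0.199 and 0.235. Only Ifitm10 of the 2 passed with a trended, robust variance in limma (0.0374 and 0.0598). Of 4313 runs over the genome with auxin above, 198 were as long or longer, the median run had 1 bin and the longest had 34 bins.

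**Figure D4:**
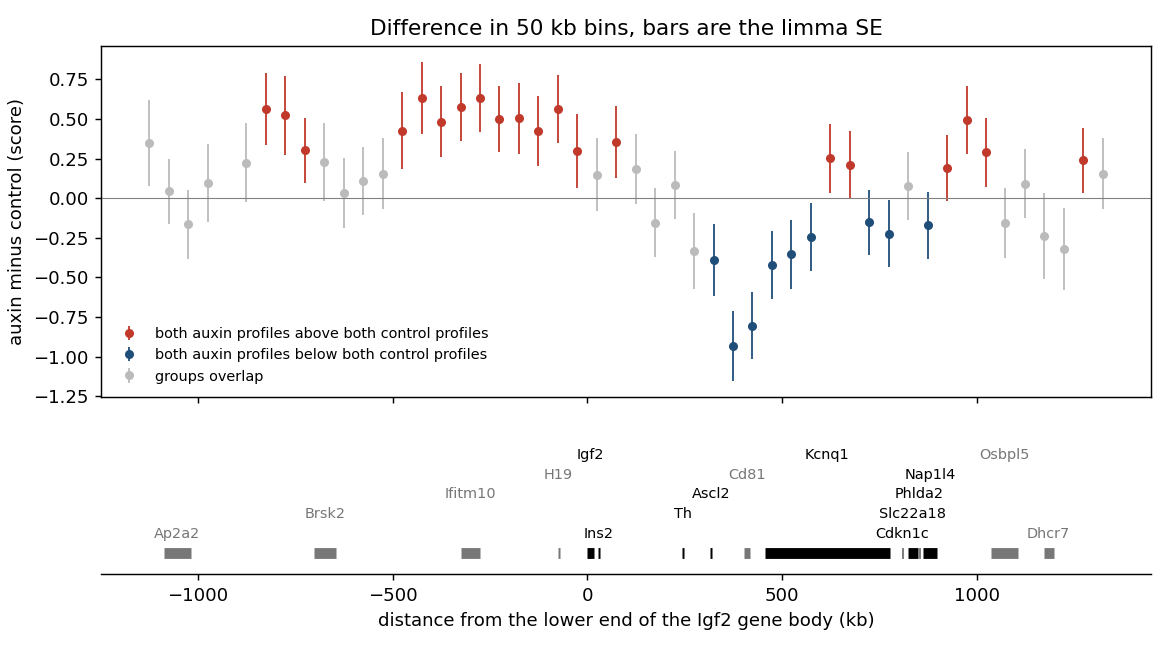
Difference in score, auxin minus control (y axis), of the 49 tested bins of 50 kb against the distance from the lower end of the Igf2 gene body in kb (x axis); bars are the limma SE, red and blue mark bins whose groups do not overlap, and gene bodies are drawn below. The 10 neighbouring red bins end at Igf2, and the lowest blue bin, at -0.93, lies over Tspan32.

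Of the 49 bins of the interval with at least 3 windows, 0 passed in limma, against 1.66% of all 42710 bins, and 10 had an unadjusted p under 0.05, against 21.7% of all bins. The groups did not overlap in 29 bins (52.5% of all bins), with auxin above in 20 (26.4% of all bins) and below in 9 (26.1% of all bins). With a trended, robust variance limma called 6 of the 49, against 10.8% of all bins: 4 earlier between 142200001 and 142600000 (5.17% of all bins), and the 2 later bins over Tspan32 and Cd81 (5.66% of all bins). Of the 400 single windows, 0 passed in limma (0.999% of all windows), and 72 had an unadjusted p under 0.05 (20.9% of all windows). In 148 windows auxin lay above control without overlap (26.3% of all windows) and in 67 below (25.7% of all windows). With the trended, robust variance 34 windows passed (9.26% of all windows), 3 of them over and beside H19, from 142572000 to 142590000. At an unadjusted p the shares of bins and windows were near those of the genome. The main fit called few bins and windows over the genome, so 0 in the interval is not read as a difference. Without the limit on windows per bin, the main fit called 1 of 48080 bins over the genome. The share of bins with auxin above was larger than in the genome, and so was that of bins called earlier with the trended, robust variance. The latter rests on 4 bins of a single run, and neighbouring bins are not independent of each other. The authors' deposited tables of early-to-late and late-to-early regions list 0 regions in the interval. By their names, those tables have a cut-off on the size of the difference, unlike the limma calls, and a second value whose meaning is not stated. The largest difference of a window in the interval was -0.998. The authors' regions carry mean scores, and why none lies in the interval was not tested.

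The 47 other protein-coding genes of the interval had a median difference of 0.35, with 39 higher and 8 lower with auxin, against a median of -0.01 among the 9 listed genes. Over all genes 10526 were higher and 10548 lower. In limma 0 of the 47 passed, 13 had an unadjusted p under 0.05 (17.1% of all genes) and 5 passed with a trended, robust variance (Ifitm10 earlier, against 2.01% of all genes, and Tspan32, Cd81, Tssc4 and Trpm5 later, against 3.3%). Many of these genes share windows, so their counts follow the few stretches described above. Control replicate 1 stood apart near Dhcr7, the gene of the last enzyme of a cholesterol synthesis branch, where the bin chr7:143800001-143850000 scored 2.28 and 2.12 with auxin and 2.84 and 2.04 in control.

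Of 51 listed imprinted genes elsewhere in the genome, 49 had a value, with differences from -1.06 to 0.98 and a median of 0.02. In limma 0 of 49 passed, 13 had an unadjusted p under 0.05 (17.1% of all genes) and 7 passed with a trended, robust variance (5.31% of all genes), larger shares than over all genes in both counts. Several of the counted genes are neighbours or overlap, such as Grb10 and Ddc or Snrpn and Snurf. The counts are therefore not of independent genes. By the root mean square distance over the 4 profiles, Dlk1, the gene of a Notch-like growth regulator on chromosome 12, was nearest to Igf2 among these 49 (0.183), followed by Slc22a3 (0.302) and Trappc9 (0.349). Dlk1 scored 0.06 and 0.19 with auxin and 0.27 and 0.07 in control. Nearest to Kcnq1 were Begain (0.312), Slc38a4 (0.351) and Ddc (0.414). The distance was taken over 4 profiles and includes the level of the score.

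Among 29 genes of insulin-like growth factor and insulin signalling outside the interval, 14 were higher and 15 lower with auxin, with a median of -0.04. In limma 0 passed, 4 had an unadjusted p under 0.05 and 1 passed with a trended, robust variance, the adaptor gene Grb10, which is imprinted too. Over all genes the shares were 17.1% and 5.31%, and with so few genes neither count stands apart from them. Igf2r, the receptor gene that clears the Igf2 ligand, scored 0.96 and 0.90 with auxin and 0.89 and 0.86 in control, a mean of 0.93 ± 0.046 against 0.87 ± 0.017 (SD, n = 2 each). Igf1r, the signalling receptor gene, scored 0.09 and 0.27 with auxin and 0.37 and 0.68 in control, a mean of 0.18 ± 0.12 against 0.52 ± 0.22 (SD, n = 2 each). Neither passed in limma (adjusted p of 0.904 and 0.457). Of 9 Kcnq and Kcne channel genes related to Kcnq1, 8 had a value, with a median difference of 0.16. In limma 0 of them passed, 1 had an unadjusted p under 0.05 and 0 passed with a trended, robust variance, against the same 17.1% and 5.31% of all genes. The inhibitor genes related to Cdkn1c, Cdkn1a and Cdkn1b, differed by 0.33 and -0.66, and 0 of the 2 passed in limma (1 unadjusted, against 17.1% of all genes, and 0 trended and robust, against 5.31%).

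**Figure D5:**
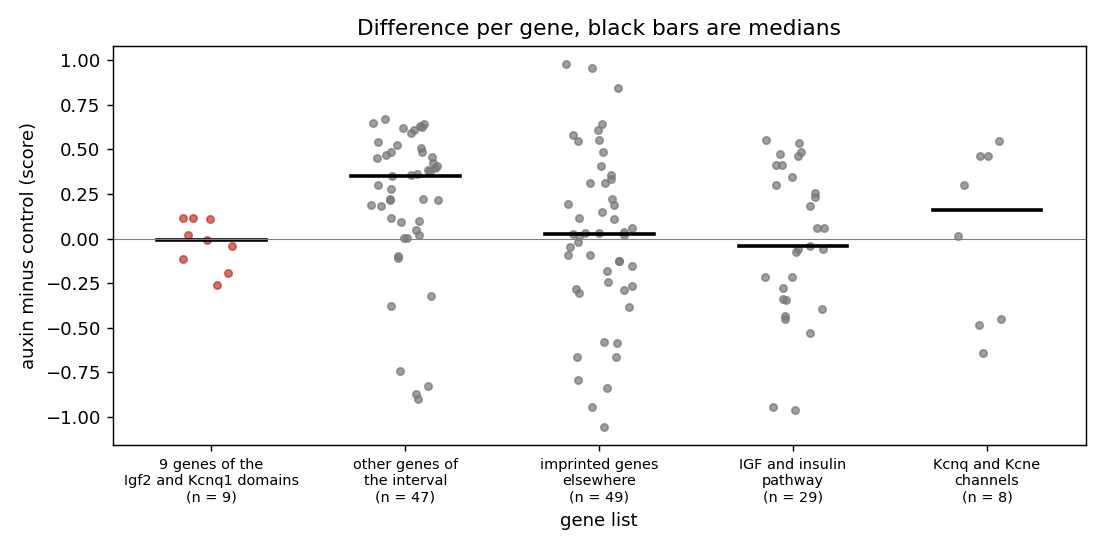
Difference in score, auxin minus control (y axis), of each gene in 5 lists (x axis); points are genes and black bars are medians. The 9 genes lie between -0.26 and 0.12, while the other genes of the interval have a median of 0.35.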

How the data were processed

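Repli-seq measures when DNA replicates from BrdU-labelled DNA of early and late S-phase cells. Bowtie2, SAMtools and bedtools were used with mm10, per the submitters' processing notes; versions, smoothing and score formula: not given in the sources used here. The authors deposited timing scores on a 6 kb grid (88.2% of steps), named as quantile normalized: sorted, the 4 columns are identical, so a genome-wide shift cannot be seen. Column names gave each profile's group and number. Read counts were not used here, so depth is unknown.

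A window was taken as the 6 kb that start at its position. A gene's score is the mean of the windows over its body, or the nearest within 50 kb (1063 of 21074 genes, none of the 9). Genes, 50 kb bins with at least 3 windows, and windows were each fitted over the genome with limma 3.58.1 (R 4.3.3) on treatment alone. Calls are adjusted p under 0.05 (Benjamini-Hochberg). For spans, an exact permutation test over profiles was used. The main fits of genes and bins were tested on simulated data with independent errors. The window fit and the alternative fits were not. Alternatives were a trended, robust variance, a replicate block, each profile left out, and other bins, gene limits and centring. SDs are over 2 profiles. The genes, lists and the limit of 3 windows were chosen with earlier results of these data known. Besides the listed genes, the rule names the 2 neighbours of the interval with the largest difference each way and the 3 imprinted genes nearest to Igf2 and to Kcnq1; other genes were named after their values were seen.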

Additional observations from a re-analysis of the deposited data

How the results depend on the processing

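Of the 9 genes, 0 were called under any alternative run. In the interval, the count of called bins was 0 in the main fit, in all bins that hold a window, in bins of 100 kb and without any single profile, 6 with a trended, robust variance and 2 with the replicate block; for windows it was 0, 34 and 7, and 0 without any single profile. The cause was not tested. Equal replicate numbers did not deviate together (r = 0.038 over 42710 bins), so the block shares only a number; over the genome it raised the called bins to 2358, against 707, and the windows to 10981, against 3164. Over the genome, the main fit called 1 of 48080 when all bins that hold a window were used, and 491 of 23277 bins of 100 kb. The share of bins called over the genome thus depended on the limit on windows per bin. With so few called without that limit, the 0 in the interval there cannot show a difference from the genome. With the trended, robust variance the counts over the genome were 4626 of the 42710 bins, 29334 windows and 1120 genes (0 genes in the main fit). Without single profiles they ranged from 0 to 127 bins, from 2 to 3555 windows and from 0 to 1 gene.

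The 3 span differences kept their direction. Leaving out single profiles could not turn it, because the groups did not overlap in any of the 3 spans. The Igf2 side ranged from 0.036 (centred on chromosome 7) to 0.17, the Kcnq1 side from -0.42 (median of windows) to -0.26, and the interval from 0.027 (centred) to 0.17. With the replicate block they were 0.12, -0.26 and 0.11. The block could not change them, because both groups hold the same replicate numbers. Signs of single genes turned as follows. Without single profiles, Igf2 ranged from -0.13 to 0.36, Ins2 from -0.074 to 0.31, Th from -0.21 to 0.13, Cdkn1c from -0.20 to 0.18, Slc22a18 from -0.023 to 0.24 and Phlda2 from -0.0054 to 0.040. Taken from the bin at the gene's midpoint, Th was 0.082, Kcnq1 0.25, Cdkn1c 0.075 and Phlda2 -0.17. With 25 kb on each side, Slc22a18 was -0.014 and Phlda2 -0.031. With windows taken as points, an alternative added after seeing the data, Cdkn1c was 0.024 and Phlda2 -0.011. Ascl2 and Nap1l4 kept their sign in all 7 alternatives. For Nap1l4, whose groups did not overlap, leaving out single profiles could not turn the sign. With 2 profiles a group and no read counts, the precision rests on the spread between profiles.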
